A study of Canis lupus familiaris with 77 samples.

Results

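The miR-99, miR-100 and miR-125 family was followed across 16 tissues of the beagle dog. Its members were taken by name from the deposited miRNA table. Of the 5 names listed, 4 had a row, namely cfa-miR-99a, cfa-miR-99b, cfa-miR-125a and cfa-miR-125b, out of 650 miRNAs with at least 1 read in the libraries used. cfa-miR-100 was not analysed here. The prefix cfa marks the dog annotation and is left out below, hsa marks human and rno marks rat, and each row counts reads of the 5p arm of its hairpin. Small RNA was sequenced from tissues of untreated male Marshall Beagle dogs that had been perfused before collection, and 76 libraries were used. They comprised 5 samples each of liver, heart, testis, lung, skeletal muscle, kidney, thymus, brain, duodenum, jejunum, ileum, pancreas, plasma and bone marrow, 4 of colon and 2 of sciatic nerve. According to the methods, all tissues came from the same 5 dogs, but the labels do not say which libraries share a dog, so the tests treat them as independent. All groups share strain, sex and lack of treatment, and differ in tissue. RNA of bone marrow and of plasma was isolated by other procedures than RNA of the solid tissues. The supplement reports low RNA integrity in plasma and bone marrow, and in some kidney samples. In bone marrow and plasma, tissue cannot be told apart from isolation and RNA quality. The study describes the sciatic nerve samples both as a split pool and as individual samples beside a pool, and the table also names a pool of 3 samples, which was not used. The 2 nerve libraries may thus be individual samples, but the labels do not say so. A p-value measures only the spread between these samples. Levels are given in RPM, the reads of an miRNA scaled to the library's total of miRNA reads.

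miRNAs are short RNAs that guide Argonaute proteins to messenger RNAs and lower their translation or stability. miR-125 is the vertebrate relative of lin-4, the first miRNA described in the worm, and miR-125b is best known in neural differentiation and in blood stem cells. miR-99 and miR-100 are near-identical to each other, are related to miR-10, and are known for targeting mTOR, a kinase that controls cell growth. Genes of both groups lie beside a let-7 gene in clusters. According to RefSeq's dog genes (assembly UU_Cfam_GSD_1.0, which the counts were not made on and which served for names and neighbours alone), chromosome 1 holds MIR125A, MIRLET7E and MIR99B side by side. Chromosome 31 holds MIR99A-1, MIRLET7C and MIR125B-2 in the same kind of order, and chromosome 5 holds MIR99A-2, MIRLET7A-2 and MIR125B-1. The miR-99a and miR-125b rows can therefore pool reads from 2 genes each, which the counts cannot tell apart. Reads were aligned without mismatches, so near-identical miRNAs are counted apart where a read covers a differing base.

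The libraries held from 157871 to 7896424 reads on miRNAs, so the upper limit for an miRNA with a count of 0, taken as 3 reads, was 0.380 to 19.0 RPM. Such limits and all intervals cover counting error only. They treat each read as a separate molecule, which PCR copies are not, so they may be too tight. The 4 members were detected in every library. The defining miRNAs of liver (miR-122), heart (miR-499), brain (miR-124 and miR-9) and pancreas (miR-217) were higher in every library of their tissue than in any other library. The skeletal muscle marker miR-206 was at 4.54 RPM in skeletal muscle replicate 4, and the testis marker miR-202 was at 0.493 RPM in testis replicate 3. A further check was chosen after the values were seen. In 8 libraries the summed markers of the labelled tissue were under 10% of the highest library of that tissue, namely skeletal muscle 4, testis 2 and 3, thymus 2, 3 and 5, for which 2 leukocyte miRNAs were summed, and duodenum 3 and 4, for which 3 epithelium miRNAs were summed. Calls that changed without these 8 libraries, and the larger shifts in medians and fold changes, are given with both values.

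By RPM, the family was most abundant in brain and least abundant in plasma. The lead of brain in single members depended on this scale, as given with the enrichment calls below. Summed over the 4 members, the median was 25231 RPM in brain, 12645 in sciatic nerve, 9627 in heart and 9250.4 in lung. It was 1689.5 RPM in jejunum and 205 in plasma, 123-fold below brain. The sums of brain did not overlap those of any other tissue, with 18038 RPM as the lowest brain library and 13111 as the highest sciatic nerve library. In bulk tissue, fewer cells that make an miRNA and less of it in each cell cannot be told apart.

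miR-125a was the most abundant member in brain and had the widest range. Its level was 11179, 8247, 15940, 14407 and 9003 RPM in brain replicates 1 to 5, against 3505 and 4604 RPM in sciatic nerve. In plasma it was 25.5, 13.0, 33.1, 81.1 and 29.0 RPM. All brain libraries lay above, and all plasma libraries below, every library of the other tissues. Between these ends, the medians of lung (3389 RPM), heart (2685), testis (1960), skeletal muscle (1943), thymus (1748), duodenum (1601) and kidney (1517) followed each other with overlapping ranges, then pancreas (1040.3), colon (855), jejunum (854), ileum (724) and liver (556). Bone marrow, at 327, 464, 427, 434 and 313 RPM, was apart from its neighbours liver and plasma. Of the 15 steps between neighbours in this order, 12 overlapped.

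miR-99b, whose gene lies in the cluster of miR-125a, was also highest in brain, at 6701, 4803, 7467, 7487 and 5914 RPM. The next tissue was lung, at 2480, 2649, 2508, 3274 and 3087 RPM, and the ranges of brain and lung were apart. Sciatic nerve had 2331 and 1896 RPM, below each lung library. The remaining medians declined from heart (1993 RPM) and duodenum (1427) to liver (420.3) and pancreas (358), with each range overlapping the next. Plasma, at 76.4, 64.0, 115, 268 and 174 RPM, was lowest by its median but overlapped pancreas, whose lowest library was at 259 RPM. miR-99b was the only member with a median above 100 RPM in all 16 tissues.

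miR-125b was led by brain and sciatic nerve. Brain replicates 1 to 5 had 4562, 3109, 1714, 5949 and 3809 RPM and the sciatic nerve libraries 3379 and 3226 RPM. Both nerve libraries lay within the range of brain, also without brain replicate 3, the lowest, and sciatic nerve was apart from heart, the next tissue, with 1597, 1855, 2536, 1194 and 2387 RPM. Testis (1269 RPM), lung (1201), skeletal muscle (1136), thymus (795), kidney (716), duodenum (689), liver (609), pancreas (439.8), colon (413), bone marrow (285), ileum (219) and jejunum (170.4) followed by their medians with overlapping neighbours. Plasma was apart from all, at 7.28, 15.3, 9.37, 23.6 and 10.4 RPM. The lowest of these rests on 2 reads, and the 5 plasma libraries held from 2 to 37 reads of miR-125b.

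miR-99a differed from the other members in that brain was not its leading tissue by the median RPM. Sciatic nerve had 2797 and 3551 RPM, heart had 1961, 2300, 3023, 2545 and 2815 RPM, and brain had 2789, 1880, 1734, 2501 and 2299 RPM. Heart overlapped both of the others, whereas each sciatic nerve library was above each brain library, by a small margin. Lung (1596 RPM), skeletal muscle (1384), testis (1233), thymus (1064), kidney (962), duodenum (843), liver (781) and bone marrow (724) came next. Bone marrow was the lowest of this group, and its range from 578 to 804 RPM was apart from that of pancreas, from 322 to 559 RPM. Colon (300.2 RPM), ileum (242), jejunum (155) and plasma (54.4) closed the order, 58.4-fold from the highest to the lowest median. In 14 of 15 steps the neighbours overlapped.

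**Figure D1:**
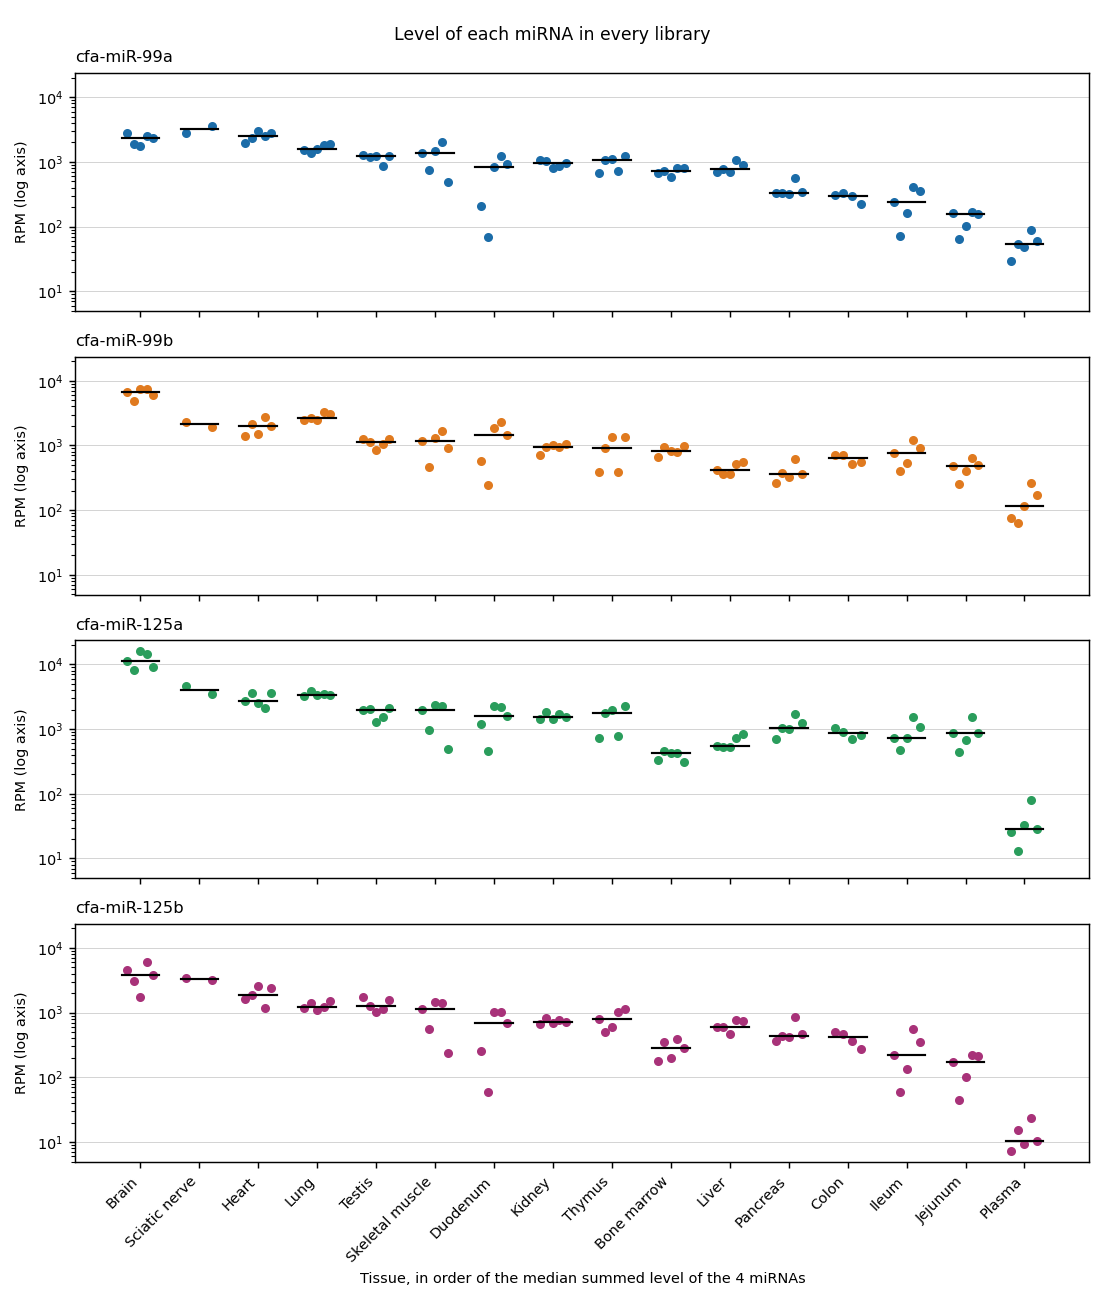
RPM of each miRNA on a log axis in every library, 1 panel per miRNA, with tissues in order of the median summed level of the 4 miRNAs. Points are libraries and black lines are medians. Brain is set apart in the panels of miR-99b and miR-125a, plasma in those of miR-125a and miR-125b, and the 5 duodenum libraries of miR-99a spread from 68.3 to 1244 RPM.

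By the study's criteria for tissue enriched (TE) miRNAs, miR-125a and miR-99b were TE in brain and no other pair of member and tissue was. TE requires a mean more than 5-fold that of the remaining samples, with an adjusted p under 0.05 in a two-sided exact rank-sum test, and was called here for miRNAs with a tissue median above 100 RPM. The mean of miR-125a in brain was 11755 ± 3345 RPM (SD, n = 5), 8.08-fold that of all other samples, with an exact rank-sum adjusted p of 8.28e-07. The mean of miR-99b was 6474 ± 1137 RPM (SD, n = 5), 6.36-fold, with the same exact adjusted p. miR-125b stayed just under the fold limit at 4.88-fold (exact adjusted p = 2.87e-05), and miR-99a was at 2.46-fold (exact adjusted p = 0.00274). Of all 650 miRNAs, 161 were TE in at least 1 tissue and 77 (11.8%) in brain. Both counts are larger than those the study reports, so these calls are not the study's own. No member met the stricter criterion of high tissue enrichment (HTE), a median above 5 times the highest other sample, for which miR-125a in brain came closest at 2.43 times, nor its version for 2 tissues. The TE calls depended on the scale. With libraries scaled by TMM, a factor computed from the bulk of the miRNAs in each library, the brain folds were 3.73 for miR-125a and 2.88 for miR-99b, and neither was TE. The brain median was then 1.27 times the highest other sample for miR-125a. It was 0.67 times for miR-99b, 0.62 for miR-125b and 0.28 for miR-99a, so brain was no longer set apart for miR-99b. Without the 8 libraries with low tissue markers, miR-125b was TE in brain at 5.04-fold, as were miR-125a at 8.49-fold and miR-99b at 6.71-fold. It was also TE, at 5.02- to 5.55-fold, when any 1 of 6 libraries was left out, namely brain 2 or 3, heart 3 or 5 or either sciatic nerve library.

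Fold changes of each tissue against the average of the 15 others came from 1 edgeR quasi-likelihood fit over 480 miRNAs with TMM scaling, with Benjamini-Hochberg adjustment within a tissue. Over all miRNAs tested, from 16.5% (bone marrow) to 45.2% (brain) were called higher in a tissue, and from 3.75% (duodenum) to 28.1% (brain) lower. Of 64 pairs of member and tissue, 41 were called at an adjusted p under 0.05, 25 higher and 16 lower. Under all 4 alternatives of scaling, filter and tool, 30 of these were called the same way, 15 higher and 15 lower. The scale matters for these values, because scaling by library size alone moved the median of all miRNAs by 1.13 in brain and by -0.65 in kidney on the log2 scale. Each fit with libraries left out computed its TMM factors anew, so the scale could move as well. A call lost in such a fit need not rest on the library left out.

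The neural, cardiac and lung samples had higher levels. In brain all 4 members were higher, where 45.2% of all miRNAs tested were called higher, with log2 fold changes of 2.34 ± 0.23 (SE) for miR-125a, 1.82 ± 0.26 for miR-99b, 1.67 ± 0.28 for miR-125b and 0.66 ± 0.28 for miR-99a. Without the 8 low-marker libraries, none of them from brain, these were 3.27, 2.81, 2.59 and 1.62 in the same order, a similar rise for all 4. The edgeR adjusted p of miR-99a in brain was 0.0301 and passed 0.05 when any of 7 libraries was left out in turn, brain replicates 1 and 5 among them. In heart all 4 were higher, where 21.9% of the miRNAs were called higher, from 1.37 ± 0.27 for miR-99b to 2.21 ± 0.24 for miR-99a, and every left-out library and alternative kept these calls. In lung all 4 were higher, where 20.6% of the miRNAs were called higher, from 0.88 ± 0.30 for miR-125b to 1.36 ± 0.27 for miR-99b. With DESeq2 size factors, miR-125b (0.41) and miR-99a (0.57) were not called in lung, and miR-125b was not called without lung replicate 2 or 4.

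In sciatic nerve 3 members were called higher, where 24.8% of the miRNAs were, namely miR-125b at 2.27 ± 0.39, miR-99a at 1.98 ± 0.37 and miR-125a at 1.43 ± 0.37. miR-99b was at 0.83 ± 0.44 (edgeR adjusted p = 0.134) and was called at 1.36 without the 8 low-marker libraries. The call of miR-125a was lost without sciatic nerve replicate 1 (1.27, edgeR adjusted p = 0.0585), which leaves 1 nerve library that is then assumed to vary like the other tissues. miR-338, a miRNA of myelinating cells, was at 1424 to 2199 RPM in sciatic nerve and at 544 to 1236 RPM in brain. It was also at 708 to 799 RPM in pancreas, within the range of brain. In skeletal muscle 4 members were called higher, where 26.5% of the miRNAs were, from 0.83 ± 0.29 for miR-99b to 1.34 ± 0.26 for miR-99a. By mean RPM against all other samples, miR-99a was at 1.23-fold, miR-125b at 0.97, miR-99b at 0.80 and miR-125a at 0.73. Scaled by library size alone, miR-125a (0.37) and miR-99b (0.24) were not called, and the call of miR-99b was lost when any 1 of 36 libraries was left out. The 36 included libraries of other tissues, such as liver replicate 1 (0.68). Replicate 4 of skeletal muscle, which lacked the level of miR-206 seen in the others, held the highest miR-99a of its tissue at 2005 RPM, and without it and the other low-marker libraries the 4 calls remained.

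In kidney miR-99a, miR-125a and miR-125b were called higher, where 24.2% of the miRNAs were, at 1.13 ± 0.27, 1.04 ± 0.26 and 1.00 ± 0.30. By mean RPM, without TMM, they were not above all other samples, at 0.94-, 0.73- and 0.73-fold. None of these was called with library size alone, and miR-125b was called under none of the 4 alternatives, with values from 0.31 to 0.71. In testis miR-125b was called higher at 0.82 ± 0.30, where 34% of the miRNAs were, a call lost when any 1 of 37 libraries was left out and at 0.66 without the 8 low-marker libraries. The 37 included libraries of other tissues, such as liver replicate 1 (0.69). In thymus no member was called by edgeR, where 26.5% of the miRNAs were called in either direction. None of the 4 had an unadjusted p under 0.05 there, and DESeq2 also called none.

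Thymus was not uniform. The 2 leukocyte miRNAs, miR-142 and miR-150, summed to 16566 and 11681 RPM in replicates 1 and 4 and to 291, 347 and 532 RPM in replicates 2, 3 and 5. miR-99b was at 386 and 386 RPM in replicates 1 and 4, against 906, 1349.6 and 1348 RPM in replicates 2, 3 and 5, and miR-125a was at 719 and 777 RPM against 1748, 1948 and 2301 RPM. miR-99a was at 666 and 731 RPM against 1064, 1099.7 and 1236 RPM. These members were thus higher in the 3 libraries with little of the leukocyte miRNAs. The same 3 libraries held more of the endothelium miRNA miR-126 (26541 to 29193 RPM against 4287 and 9684), of the smooth muscle miRNAs miR-143 and miR-145 (92885 to 133634 RPM against 15956 and 33244) and of the red blood cell miRNAs miR-451, miR-144 and miR-486 (44927 to 92479 RPM against 4774 and 20569). The study lists miR-486 among the most expressed miRNAs of thymus itself, and also of bone marrow, duodenum, heart, lung, skeletal muscle and sciatic nerve. The part of blood in the red blood cell sum was not tested. For miR-125b the 2 sets of thymus libraries overlapped, with 795 and 1039 RPM against 494, 609.8 and 1118 RPM. Without the 8 low-marker libraries, which leaves 2 thymus libraries, edgeR called miR-125a (log2 fold change -1.30, adjusted p = 0.0352) and miR-99b (-1.88, adjusted p = 0.00511) lower in thymus, and miR-99a moved from 0.48 to -0.52 without a call. The share of all miRNAs called in that fit is not given here. The thymus medians then fell from 1748 to 748 RPM for miR-125a, from 906 to 386 for miR-99b and from 1064 to 699 for miR-99a. The part of these other cell types in the levels was not tested.

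Some members were lower in the gut below the duodenum, in pancreas and in liver. In jejunum 3 members were called lower, where 13.1% of the miRNAs were, namely miR-99a at -2.63 ± 0.38, miR-125b at -2.17 ± 0.40 and miR-99b at -1.18 ± 0.35. miR-125a was at -0.61 ± 0.30 (edgeR adjusted p = 0.104), and DESeq2 called it lower (-0.72, adjusted p = 0.0207). In ileum miR-99a (-1.74 ± 0.35) and miR-125b (-1.37 ± 0.37) were called lower, where 8.75% of the miRNAs were, while miR-125a was at -0.62 ± 0.30 (edgeR adjusted p = 0.128) and was called lower by DESeq2 (-0.83, adjusted p = 0.00736). In colon miR-99a was called lower at -1.28 ± 0.38, where 6.46% were, a call lost without colon replicate 5 (-0.94, edgeR adjusted p = 0.0981). In pancreas miR-99b (-1.27 ± 0.36) and miR-99a (-0.79 ± 0.32) were called lower, where 19.2% were, and the call of miR-99a was lost when any 1 of 10 libraries was left out and at -0.34 without the 8 low-marker libraries. In liver miR-99b (-1.13 ± 0.35) and miR-125a (-0.97 ± 0.31) were called lower, where 12.5% were, whereas miR-125b was at 0.17 ± 0.32 and miR-99a at 0.33 ± 0.29. The members made from chromosome 1 were thus the ones called lower in liver.

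**Figure D2:**
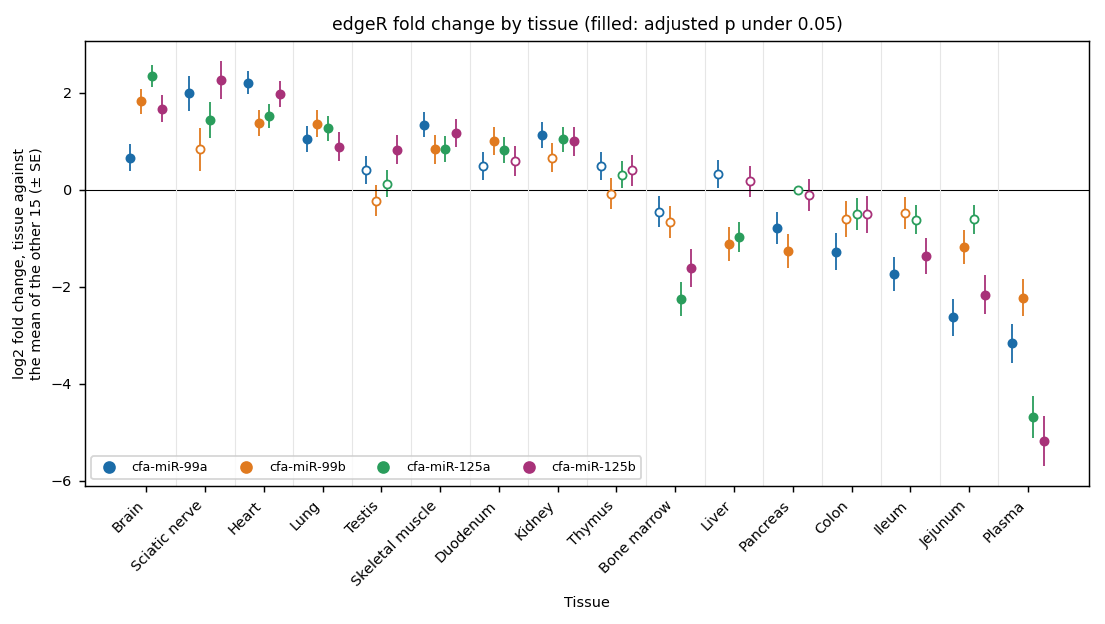
edgeR log2 fold change of each member in each tissue against the mean of the other 15, with its SE, which is not drawn for miR-125a in pancreas, where the fold change was near 0. Filled points have an adjusted p under 0.05. All 4 points are filled and above 0 in brain, heart, lung and skeletal muscle, and all 4 are filled and below 0 in plasma.

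Duodenum had the widest relative spread of the 16 tissues for miR-99a and miR-99b, with coefficients of variation of 76.2% and 67.0%. miR-99a was at 205, 68.3, 843, 1244 and 919 RPM in replicates 1 to 5, and miR-99b at 567, 246, 1885, 2266 and 1427 RPM. The 3 epithelium miRNAs, miR-200c, miR-192 and miR-194, summed to 291975, 430235, 23555, 5516 and 82398 RPM in the same libraries. The 2 smooth muscle miRNAs, miR-143 and miR-145, summed to 136640, 85877, 615456, 412923 and 213351 RPM. The red blood cell miRNAs summed to 2768 and 1733 RPM in replicates 1 and 2 and to 22898, 74447 and 33885 RPM in replicates 3, 4 and 5. Every member was lowest in replicate 2, which had the most epithelium reads, and higher in each of replicates 3, 4 and 5 than in replicates 1 and 2. In edgeR miR-99b (1.00 ± 0.28) and miR-125a (0.82 ± 0.26) were called higher in duodenum, where 21% of the miRNAs were called higher. By mean RPM they were at 0.92- and 0.71-fold of all other samples. Without the 8 low-marker libraries, duodenum 3 and 4 among them, neither was called, with miR-99b at -0.09 and miR-125a at 0.00, and scaled by library size alone neither was called. Without the same 8 libraries miR-125b moved from 0.60 to -0.69 and miR-99a from 0.49 to -0.57 without a call, and the medians fell from 843 to 205 RPM for miR-99a, from 1427 to 567 for miR-99b and from 689 to 257 for miR-125b. Leaving out duodenum 3 or duodenum 4 alone also ended both calls.

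Low miR-99a and high epithelium reads also met in the other gut tissues. In ileum the epithelium sums were 166740, 279559, 248611, 61587 and 61183 RPM, and miR-99a was at 242, 71.4, 162, 406 and 355 RPM in the same order. The 2 ileum libraries with the least epithelium reads thus had the highest miR-99a, and the library with the most had the lowest. In jejunum replicate 2 had the most epithelium reads (439008 RPM) and the lowest level of each member, and replicate 4 had the least (249789 RPM) and the highest level of each. In colon the epithelium sums were 138284, 110317, 188765 and 217681 RPM and miR-99a was at 308, 333, 292 and 224 RPM, whereas miR-99b and miR-125a were lowest in the library with 188765 RPM and not in that with the most. The part of epithelium, muscle or blood content in the gut results was not tested. Between colon and ileum edgeR called no member, where 0.208% of the miRNAs were called in either direction, with no unadjusted p under 0.05 and none called by DESeq2. The log2 difference of miR-125b between them was 0.80 ± 0.47 and that of miR-99b was -0.10 ± 0.46.

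**Figure D3:**
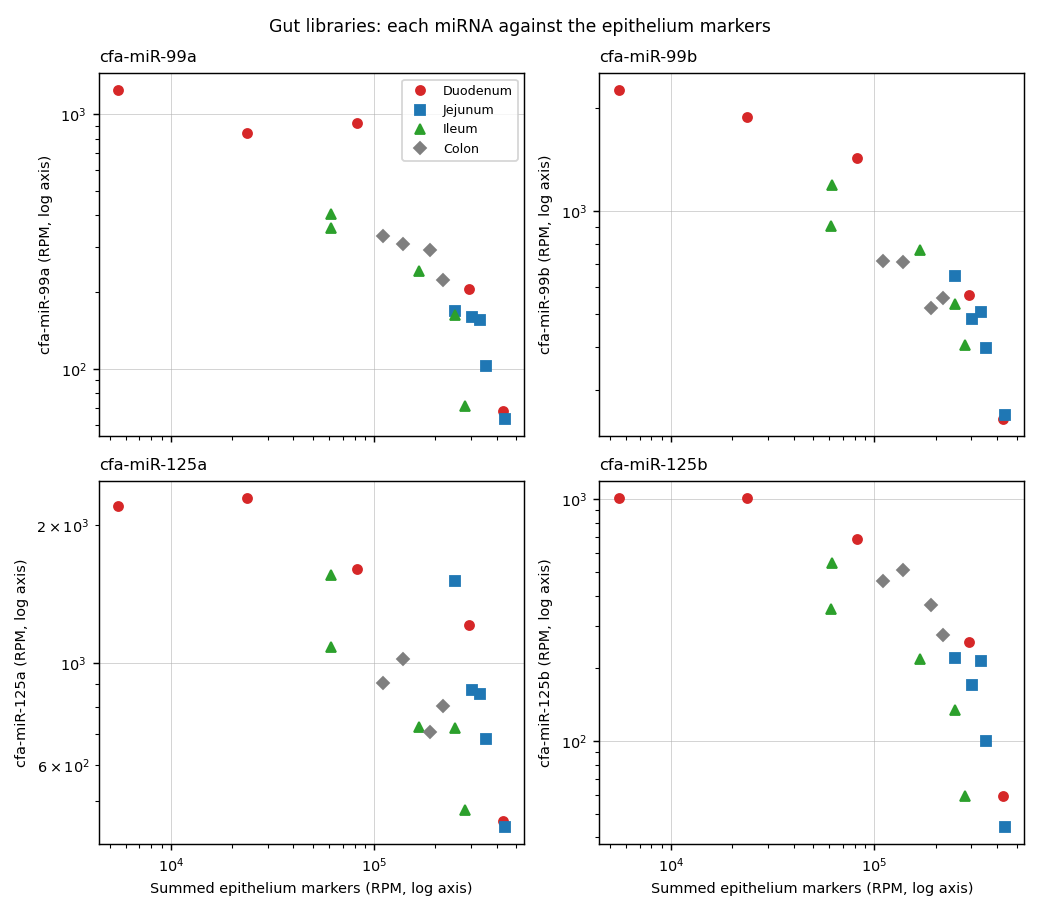
RPM of each member against the summed RPM of 3 epithelium miRNAs in the 5 duodenum, 5 jejunum, 5 ileum and 4 colon libraries, on log axes, with symbols by tissue. The points run from the duodenum library with 5516 RPM of epithelium miRNAs and 1244 RPM of miR-99a down to the jejunum library with 439008 and 63.5 RPM.

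Bone marrow, where blood cells are formed, and plasma were low in both miR-125 members. In bone marrow miR-125a (-2.26 ± 0.35) and miR-125b (-1.62 ± 0.39) were called lower by edgeR, where 24.6% of the miRNAs were, and miR-99b (-0.67 ± 0.34) and miR-99a (-0.46 ± 0.32) were not. The call of miR-125b was lost without bone marrow replicate 1 (-0.93, edgeR adjusted p = 0.0552). In plasma all 4 were called lower, where 24.8% were, at -5.18 ± 0.51 for miR-125b, -4.69 ± 0.42 for miR-125a, -3.17 ± 0.40 for miR-99a and -2.23 ± 0.39 for miR-99b. Plasma against bone marrow gave the same direction for all 4, where 16.7% of the miRNAs were called lower, from -1.46 ± 0.44 for miR-99b to -3.33 ± 0.52 for miR-125b. The red blood cell miRNAs summed to between 543769 and 815725 RPM in plasma and to between 83638 and 144926 RPM in bone marrow, and the smooth muscle miRNAs to at most 2206 RPM in plasma. The part of these reads in the plasma levels, which are shares of all miRNA reads, was not tested. RNA isolation differed from that of the solid tissues and RNA integrity was low. These cannot be told apart from tissue in the levels and ratios of bone marrow and plasma.

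Pairs of related tissues were compared directly in the same fit. Between heart and skeletal muscle edgeR called no member, where 12.7% of the miRNAs were called in either direction, with differences from 0.51 ± 0.43 for miR-99b to 0.81 ± 0.41 for miR-99a. None had an unadjusted p under 0.05 and DESeq2 called none, while edgeR scaled by library size alone called miR-99a (1.06, adjusted p = 0.0499). From brain to sciatic nerve miR-99a was called higher in the nerve at 1.24 ± 0.51 (edgeR adjusted p = 0.0428), where 17.9% of the miRNAs were called higher. The call was lost when any 1 of 44 libraries was left out, also of tissues outside the pair, such as liver replicate 1 (1.12). With all libraries, 27.1% of the miRNAs were called lower in the nerve, and the median over all was -0.72. miR-125a was at -0.85 (edgeR adjusted p = 0.182) and miR-99b at -0.93 (edgeR adjusted p = 0.192). With DESeq2 size factors miR-99a was not called (0.58) while miR-125a (-1.48) and miR-99b (-1.56) were called lower in the nerve. Without the 8 low-marker libraries the pattern was alike, with miR-99a at 0.82 and not called and miR-125a (-1.26) and miR-99b (-1.35) called lower. The shares of all miRNAs called in these 2 other fits are not given here. For miR-125b the sign of the difference changed with the scaling, from 0.56 to -0.14 with DESeq2 size factors.

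A ratio of 2 members within a library does not depend on how libraries are scaled. Ratios were tested for 3 pairs of members in each of 16 tissues against all other samples with a two-sided exact rank-sum test, adjusted over the 48 tests, with 0.5 reads added to each count. The 3 ratios differed in 3, 3 and 4 tissues, and their medians were 2.14 for miR-125a to miR-125b, 0.665 for miR-99b to miR-125a and 1.17 for miR-99a to miR-125b over the 76 libraries.

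The ratio of miR-99b to miR-125a, neighbours on chromosome 1, differed in plasma, bone marrow and pancreas. In plasma there were 3.45 reads of miR-99b for each read of miR-125a by the median, and the lowest plasma library (log2 ratio 1.52) was above all but 1 of the libraries of other tissues (the highest at 1.67). The difference in mean log2 ratio was 2.52 (exact rank-sum adjusted p = 5.20e-06). In bone marrow the median ratio was 2.03, a difference of 1.59 (exact rank-sum adjusted p = 0.00225). In pancreas it was 0.351, and each pancreas library, at log2 ratios from -1.81 to -1.43, was below every library of the other tissues, the lowest of which was at -1.23 (exact rank-sum adjusted p = 5.20e-06). Outside plasma and bone marrow, no tissue had a median ratio above 0.835, the value of ileum. These 3 tissues kept their calls with every library left out in turn and under each alternative test.

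The ratio of miR-99a to miR-125b also differed in plasma and bone marrow. Its median was 3.72 in plasma, a difference in mean log2 ratio of 1.91 (exact rank-sum adjusted p = 6.93e-06), and 2.76 in bone marrow, a difference of 1.21 (exact rank-sum adjusted p = 0.00228). In both, each library had more miR-99a than miR-125b. At the other end, brain had 0.605 reads of miR-99a for each of miR-125b by the median, a difference of -1.01 (exact rank-sum adjusted p = 0.00225). Pancreas had 0.745 (exact rank-sum adjusted p = 0.0383), a call lost without any of pancreas replicates 2, 3, 4 and 5, without the low-marker libraries and in a permutation test of the means. The plasma ratios rest on few reads, such as 8 of miR-99a and 2 of miR-125b in replicate 1 and 139 and 37 in replicate 4.

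The ratio of miR-125a to miR-125b separated the small intestine from the liver. These miRNAs come from different chromosomes. The ratio was 6.80 in jejunum by the median, a difference in mean log2 ratio of 1.61 from all other samples (exact rank-sum adjusted p = 0.00053), and 3.31 in ileum, a difference of 0.98 (exact rank-sum adjusted p = 0.0181). Liver was at the low end with 0.949, a difference of -1.22 (exact rank-sum adjusted p = 0.00225), and its libraries ranged from -0.17 to 0.19 on the log2 scale. The call in ileum was lost without ileum replicate 2 or 3 and in the permutation test of the means, and those of jejunum and liver were kept under each alternative. Without the 8 low-marker libraries thymus, then with 2 libraries, was also called, at a difference of -1.47 (exact rank-sum adjusted p = 0.0177) against -0.37 with all libraries (exact rank-sum adjusted p = 0.749). Duodenum was not called (exact rank-sum adjusted p = 0.247). Its libraries with the most epithelium reads, replicates 1 and 2, had log2 ratios of 2.23 and 2.93, in the range of jejunum, and the other 3 lay between 1.11 and 1.22. Of the 76 libraries, 70 had more reads of miR-125a than of miR-125b.

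**Figure D4:**
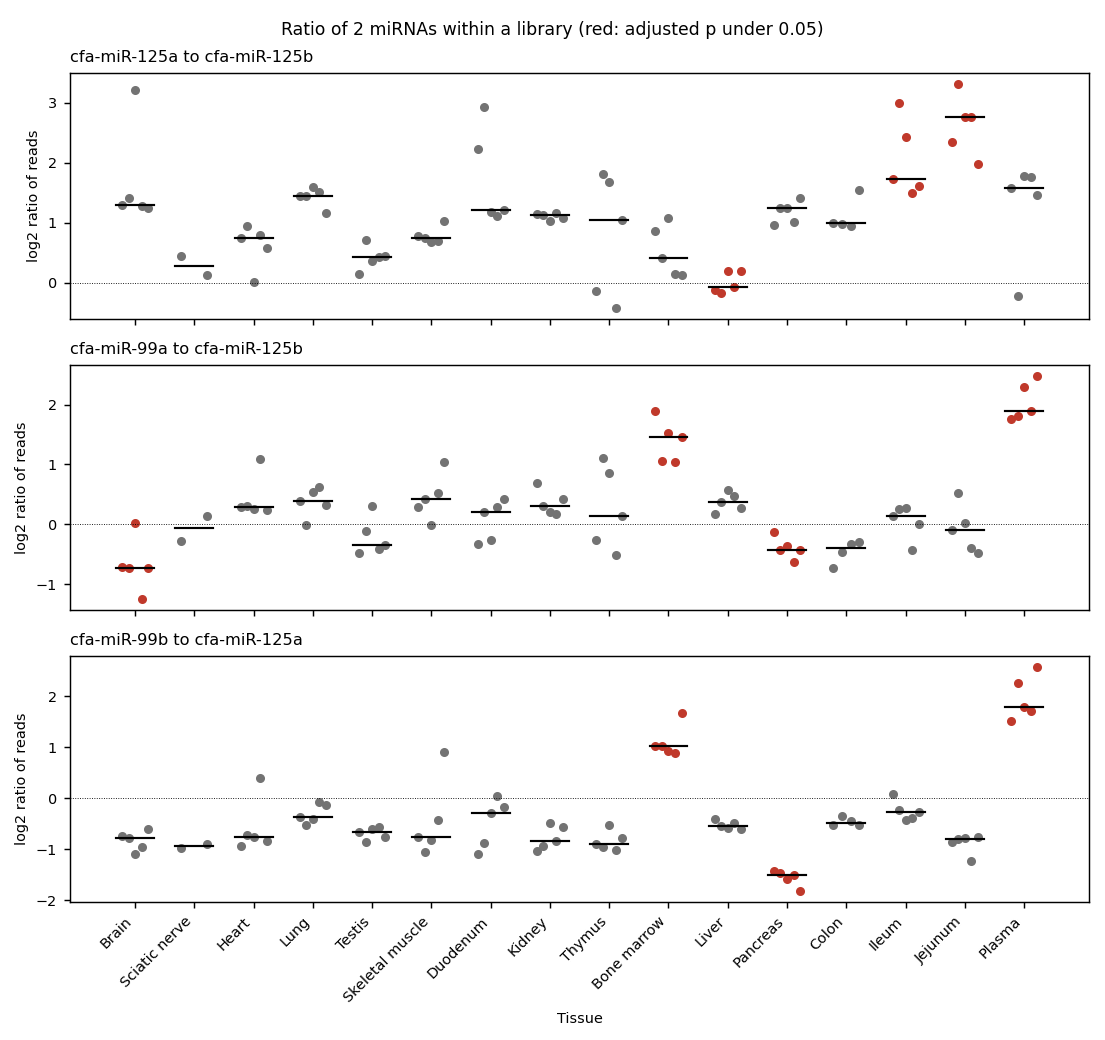
log2 ratio of the reads of 2 members within each library, by tissue, 1 panel per ratio. Points are libraries, black lines are medians, the dotted line marks equal reads, and red marks tissues with an exact rank-sum adjusted p under 0.05. Plasma and bone marrow stand high in the lower 2 panels, and jejunum and ileum in the upper one.

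Reads of the opposite arms of the hairpins, the 3p strands, give a further view of the same genes. In the rows of the human and rat annotation, 5 of 7 listed 3p names had a row. hsa-miR-125b-2-3p was the most abundant, with medians of 2033 RPM in sciatic nerve, 1534 in brain and 762 in heart, and 43.8 RPM in jejunum and 25.9 in plasma. hsa-miR-125b-1-3p reached 603 RPM in sciatic nerve and 388 in brain. hsa-miR-99a-3p had its highest tissue median in brain, at 107 RPM, as did hsa-miR-125a-3p, at 23.9 RPM. rno-miR-100-3p, the other arm of the hairpin of miR-100, was at most 4.76 RPM by the median, in heart. All 5 were called higher in brain and in heart by edgeR, and 3 were called lower in each of bone marrow, ileum, jejunum and plasma, beside the percentages of all miRNAs given for these tissues above.

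The 2 genes of miR-125b share their 5p sequence but differ in the 3p arm, so the share of hsa-miR-125b-1-3p among the reads of both 3p rows describes the split between them as far as both arms are kept alike and the human and dog names number the genes in the same way. This was looked at after the values were seen and was not tested. The share was 26.7% (95% Wilson interval 25.1 to 28.5) and 18.7% (17.3 to 20.1) in the 2 sciatic nerve libraries. In brain it lay between 19.9% and 21.5% in replicates 1, 2, 4 and 5 and was 8.12% (7.25 to 9.08) in replicate 3. In kidney, at the other end, it was 2.97%, 2.66%, 3.27%, 3.59% and 3.77%, and liver had a median of 4.72% and lung of 8.35%. The neural libraries other than brain replicate 3 thus held a larger share of hsa-miR-125b-1-3p than any kidney, liver or lung library, whose highest share was 9.59%. Such shares were not particular to neural tissue. Single libraries of other tissues lay in the same range, such as heart replicate 3 (21.7%), ileum replicate 5 (20.3%) and thymus replicate 4 (22.9%). Both 3p rows made up a median of 20.6% (jejunum) to 60% (plasma) of miR-125b 5p and 3p reads together. Within brain this ran from 24.4% to 49.5%. The arms were thus not kept alike throughout, and the share cannot be read as that of a gene. In thymus the share was 14.95% and 22.9% in replicates 1 and 4, which held the leukocyte miRNAs, and 7.14%, 9.12% and 7.80% in the others. In testis it was 10.3% and 8.34% in replicates 2 and 3, which had little miR-202, and 25.4%, 24.3% and 15.9% in replicates 1, 4 and 5. Plasma and bone marrow cannot be placed, since their 5 libraries together held 32 and 6 reads of hsa-miR-125b-1-3p.

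**Figure D5:**
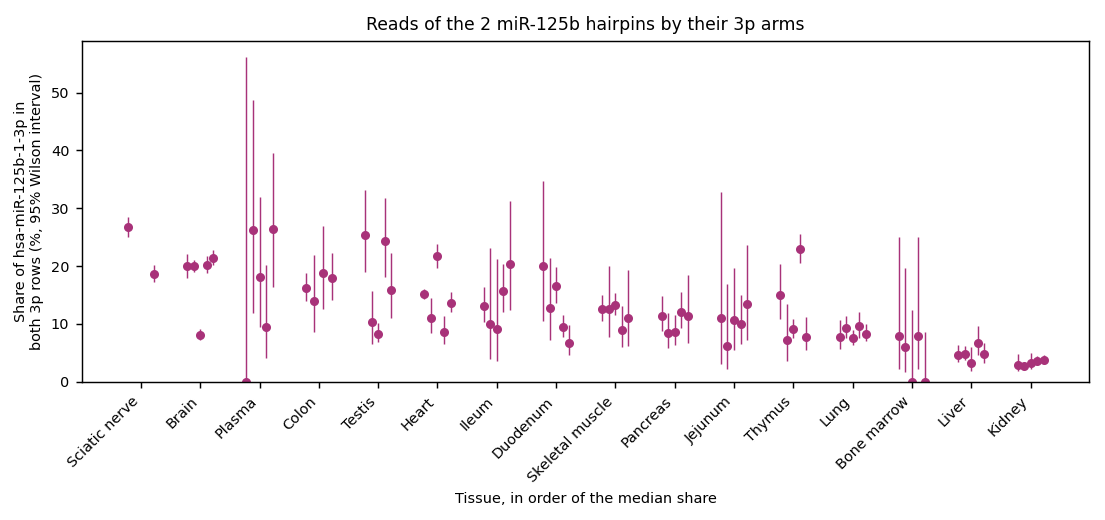
Share of hsa-miR-125b-1-3p in the reads of the 3p arms of both miR-125b hairpins in each library, in percent with 95% Wilson intervals for counting error, with tissues in order of the median. Sciatic nerve and 4 of 5 brain libraries lie between 18.7% and 26.7%, and all kidney libraries lie between 2.66% and 3.77%.

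The let-7 members of the 3 clusters followed the family to differing degrees. let-7e, which lies between miR-125a and miR-99b, was highest in brain (median 5563 RPM) and sciatic nerve (2448 RPM) and was called higher in brain at 2.44 ± 0.18 and lower in plasma at -6.05 ± 0.39. In jejunum, where miR-99b was called lower, let-7e was at 0.15 ± 0.23. let-7c, from the cluster with miR-99a and miR-125b on chromosome 31, was highest in sciatic nerve (17047 RPM against 6224 in brain) and was called lower in jejunum (-1.68 ± 0.37), ileum and colon and higher in sciatic nerve (2.82 ± 0.35). let-7a, which other genes also make, ranged from 1471 RPM in plasma to 54223 RPM in sciatic nerve and was called neither in brain (0.12 ± 0.17) nor in jejunum. Of the related miRNAs, miR-10a and miR-10b had brain medians of 413 and 1828 RPM, and miR-10b had its next lowest medians in liver (2911 RPM), plasma (8469) and lung (12107).

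Across the 16 tissue medians the members followed each other, as a description of points that share libraries and scale. Spearman's rho was 0.974 between miR-99a and miR-125b and 0.941 between miR-125a and miR-125b, and it was lowest between miR-99b and miR-125b at 0.862. Of the 262 other miRNAs with a tissue median above 100 RPM, hsa-miR-125b-2-3p was most like miR-99a (rho 0.976) and miR-125b (0.965). hsa-miR-125b-1-3p was most like miR-125a (0.912), and miR-130a most like miR-99b (0.882). miR-130a was also among the 3 most like miR-99a (0.935) and miR-125b, and miR-1468 among those most like miR-125a (0.894). Much of this order depended on the measure. By Pearson's r of log2 medians hsa-miR-125b-2-3p stayed the most like miR-99a and miR-125b, but hsa-miR-125b-1-3p and miR-1468 ranked 10 and 20 for miR-125a, and miR-130a ranked 5 for miR-99b. let-7c had a rho of 0.897 with miR-99a and 0.868 with miR-125b, and let-7e had 0.859 with miR-125a and 0.788 with miR-99b. By Pearson's r of log2 medians these were 0.929, 0.892, 0.952 and 0.846 in the same order. The rho of miR-10a with the members lay between -0.271 and -0.0294 and that of miR-10b between 0.115 and 0.238.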

How the data were processed

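Small RNA libraries of 16 dog tissues were analysed from the table that the authors deposited. The authors aligned clipped reads to CanFam3.1 without mismatches, dropped reads at more than 10 locations, and counted reads that overlapped at least 70% of a dog, human or rat miRNA locus. They deposited these counts, the total of miRNA reads per sample, and the counts scaled to that total as RPM. Counts of a sample sum to at most 1.16% more than its total. Rows not listed were set to 0, 1 sample name of the table, a pool of 3, matched no label and was not used, and 1 labelled colon sample had no values. Groups were taken from the labels, which carry no dog number. Levels, exact rank-sum tests and ratios were computed in Python 3.11.15, and fold changes with edgeR 4.0.16 (TMM, filterByExpr, deposited totals as library sizes, all tissues in 1 fit) in R 4.3.3, with DESeq2 1.42.0 as an alternative. SE is the fold change over the root of F. The procedures were tested on simulated data. Described were all members, the other arms, the let-7 miRNAs of their clusters, miR-10a and miR-10b, and the 3 miRNAs most like each member. The members and lists were chosen with earlier results of these data known. Of 5 planned ratios, 3 could be formed without miR-100. Alternatives covered scaling, filter, tool, pseudocount, adjustment, test, thinning and leaving out each library, and, added later, the 8 low-marker libraries together. Target sequences are not given here.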

Additional observations from a re-analysis of the deposited data

Results flagged for a closer look

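In 60 groups of 4 or 5 libraries, 4 levels lay apart from the others of their tissue by a gap test at the 95% level, and so did 8 of 45 log2 ratios, where chance gives about 1 in 20. In pancreas replicate 4, miR-125b was at 859.8 RPM against 359 to 470 in the others and miR-99a at 558.6 RPM against 322 to 348. Smooth muscle miRNAs summed to 39282 RPM in that library and to between 14838 and 17332 RPM in the other pancreas libraries. The endothelium miRNA (11817 RPM against 5945 to 7826), the fibroblast miRNAs (1753 against 663 to 760) and the pancreas marker miR-217 (6274 against 3006 to 3799) were also highest there. Their part in the levels was not tested. In testis replicate 4 miR-99a was low at 851.6 RPM (others 1171 to 1271), and in kidney replicate 1 miR-99b was low at 713.7 RPM (others 953 to 1035).

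The log2 ratio of miR-125a to miR-125b was 3.22 in brain replicate 3 and 1.24 to 1.41 in the other brain libraries. This library also had the lower share of hsa-miR-125b-1-3p described above, and its epithelium miRNAs summed to 23975 RPM against 2659 to 3202 in the others, while its smooth muscle miRNAs were lowest, at 13910 RPM against 23509 to 66081. Its brain miRNAs, at 44790 RPM, were the highest of the tissue. The same ratio was 1.54 in colon replicate 5 (others 0.95 to 1.00), -0.227 in plasma replicate 2 (others 1.46 to 1.78), with 23 and 27 reads, and 1.03 in skeletal muscle replicate 5 (others 0.67 to 0.77).

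In heart replicate 4 the log2 ratio of miR-99a to miR-125b was 1.09 (others 0.24 to 0.31) and that of miR-99b to miR-125a was 0.403 (others -0.93 to -0.72). Its red blood cell miRNAs summed to 274986 RPM against 99921 to 121423 in the other heart libraries, and its endothelium miRNA was at 12724 RPM against 30854 to 46484. The red blood cell sum includes miR-486, which the study lists among the most expressed miRNAs of heart and, among others, of bone marrow. The part of blood in this sum was not tested. The ratio of miR-99b to miR-125a also lay apart in bone marrow replicate 5, at 1.67 (others 0.89 to 1.03), and in jejunum replicate 4, at -1.23 (others -0.85 to -0.76). The part of other cells or of RNA quality in these values was not tested.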

How the results depend on the processing

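No paired analysis was possible because the labels carry no dog number, although the tissues came from the same dogs. The members called by edgeR were 2 in duodenum and became 1 with DESeq2 size factors or DESeq2's Wald test and 0 with library size only. They were 3 in kidney and 0 with library size only, 4 in lung and 2 with either DESeq2 setting, and 2 in pancreas and 1 with either. In skeletal muscle 4 became 2 with library size only or no filter. In testis 1 became 2 with either DESeq2 setting or library size only and 0 with no filter. Between heart and skeletal muscle 0 became 1 with library size only, and between sciatic nerve and brain 1 became 2 with either DESeq2 setting or library size only and 0 with no filter. With either DESeq2 setting, miR-125a was also called in jejunum, 4 in place of 3, and in ileum, 3 in place of 2. TE calls fell from 2 to 0 with TMM library sizes. Leaving out the 8 low-marker libraries, an alternative chosen after seeing the data, gave 0 calls in duodenum, where miR-99b reversed from 1.00 to -0.087, 1 in pancreas, 0 in testis, 2 in thymus and 2 between sciatic nerve and brain. The cause of these changes was not tested. With each library left out in turn, calls ranged from 1 to 3 in bone marrow, 3 to 4 in brain, 0 to 1 in colon, 0 to 4 in duodenum, 2 to 3 in ileum, 2 to 4 in kidney, 3 to 4 in lung, 1 to 2 in pancreas, 2 to 3 in sciatic nerve, 2 to 4 in skeletal muscle, 0 to 1 in testis and 0 to 1 between sciatic nerve and brain. TE calls ranged from 2 to 3, and tissues that differed in a ratio from 2 to 4 for miR-125a to miR-125b, 3 to 5 for miR-99a to miR-125b and 3 to 3 for miR-99b to miR-125a. Calls stayed at 4 in heart, 4 in plasma, 3 in jejunum, 2 in liver, 4 for plasma against bone marrow, and 0 in thymus, for heart against skeletal muscle and for colon against ileum. TMM scaling moved 26 of 64 tissue medians by more than the SD of the tissue, and thinning to the smallest library moved 3. Pearson's r in place of Spearman's rho left 2 of the 12 closest miRNAs among the 3 closest of their member. The fewest reads behind a value were those of miR-125b in plasma, 2 to 37 per library, and they limit its level and ratios there. With 2 libraries, sciatic nerve has the least certain spread.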
